A study of Saccharomyces cerevisiae with 9 samples.

Results

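The nuclear pore complex genes of budding yeast (Saccharomyces cerevisiae) were followed across log phase in 9 mRNA-seq libraries. The set holds 32 genes out of the 7127 genes in the count files and was chosen by name, as the genes that encode the nucleoporins and the pore-bound export factors Gle1 and Gle2. All libraries came from 1 MATa strain called wild type, which carries RPA135-(HA)3-(His)7::TRP1, a tagged subunit gene of RNA polymerase I. It also carries the alleles can1-100, his3-11, trp1-1, ura3-1 and ade2-1, and a mutant allele of leu2. Cultures were grown in YPD at 30 °C, were not synchronized and were harvested in early, mid or late log. Each subphase had 3 biological replicates, called A, B and C. Levels are given in CPM, poly(A) reads scaled to a common library size by TMM, which adjusts each library so that most genes keep a common level. The TMM factors ran between 0.70 in mid log C and 1.47 in early log C, and every level given depends on them. Fewer cells that use a gene and less of its RNA per cell cannot be told apart.

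Between 22830165 and 34358259 reads per library fell on genes, and the 32 genes took 0.108% to 0.284% of them. Early log C and mid log A stood apart from the other libraries of their subphase, with a chi-square per gene of 447 to 684 against the others, where the remaining pairs within a subphase gave 8.88 to 38.4. Calls of the 32 genes that are gained or lost without 1 of these libraries are named beside the results. The sequencing runs were uneven as well, since run 1 held early log A and B, run 2 held the 3 mid log libraries and run 3 held early log C and the 3 late log ones, so that mid log and run 2 cannot be told apart. Genes of the labelled mating type summed to 738 to 2465 CPM (6 of 6 detected in every library), against 19.7 to 31.3 CPM for 4 genes of the other mating type, most of it from SAG1. The alpha-factor genes MF(ALPHA)1 and MF(ALPHA)2 stayed at or below 1.84 CPM.

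The nuclear pore complex is the channel through which all traffic between nucleus and cytoplasm passes. A membrane ring of transmembrane proteins anchors it, an inner ring and outer rings of Y-shaped complexes form its scaffold, and nucleoporins rich in phenylalanine-glycine (FG) repeats fill the channel and bind the karyopherins that carry cargo. Cytoplasmic filaments remodel exported mRNA, and a nuclear basket faces the chromatin. By role, the set held 7 outer ring genes, 7 inner ring genes, 3 membrane genes, 3 genes of the channel FG trimer, 2 further FG genes, 5 genes of the cytoplasmic side and mRNA export, and 5 basket genes.

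The genes of the pore did not keep a common level through log phase. In late log, 24 of the 32 were lower than in early log and 3 were higher (edgeR quasi-likelihood test, Benjamini-Hochberg adjusted p under 0.05), where 39.2% of the 5954 genes tested were lower and 33.0% were higher. The median log2 fold change in late over early log was -1.14 for the 32 genes and -0.08 for all genes tested. The 3 late log libraries lay below all 3 early log libraries for 24 of the genes and above them for 3, against 39.2% and 37.9% of all genes. The 5 deepest falls were in NUP57, NSP1, MLP1, NUP82 and NUP2, of which 3 encode FG nucleoporins, and 2 of the 3 rises were in the outer ring. Without early log C, 27 genes were lower and 3 higher, where 42.4% and 38.4% of 5986 genes were called. The genes gained were NUP84 (-0.40, edgeR adjusted p = 0.00452), NUP120 (-0.43, adjusted p = 0.00572) and GLE1 (-0.47, adjusted p = 0.00567). The falls of NUP57 (-5.16), NSP1 (-4.72), MLP1 (-4.33), NUP82 (-3.62) and NUP2 (-2.99) were deeper. For all of these genes early log C was the lowest early log library, so leaving it out raised their early log mean. In a fit of all 9 libraries, which takes the spread of mid log into account, 17 genes were lower and 3 higher, and NDC1, NUP42, NUP49, NUP145, NUP192, POM34 and POM152 lost their call. The share of all genes called in that fit is not given here, so these losses cannot be read as particular to the set.

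**Figure D1:**
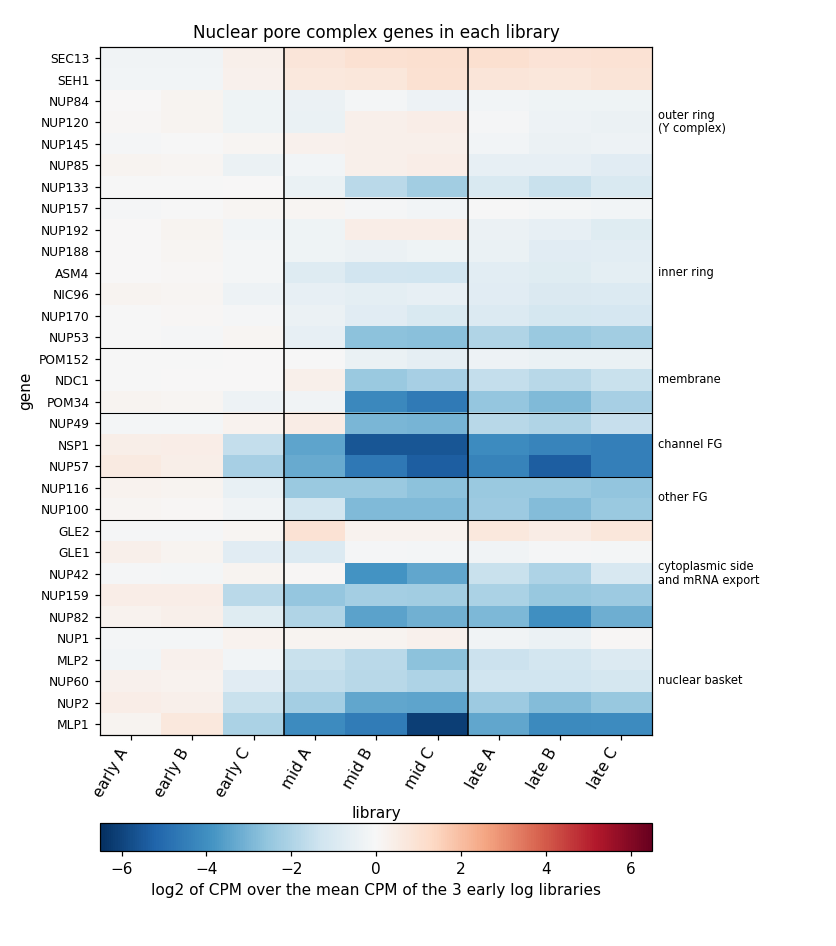
Level of each of the 32 genes (rows, grouped by role) in each library (columns, early, mid and late log), as the log2 of its CPM over the mean CPM of the 3 early log libraries. Blue is lower and red is higher, with the darkest blue at NSP1, NUP57 and MLP1 in mid log B and C and late log, while early log C is already pale blue for 7 genes and mid log A keeps early log levels for NDC1, NUP49, NUP42 and POM34.

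The channel trimer held the 2 deepest falls of the set. Nsp1, Nup49 and Nup57 form the central FG trimer that Nic96 anchors to the inner ring. NSP1 (YJL041W, chromosome X 365784 to 368373, R64) stood at 67.2, 68.2 and 17.5 CPM in early log A, B and C, at 4.76, 1.08 and 1.08 CPM in mid log A, B and C and at 3.04, 2.62 and 2.36 CPM in late log A, B and C. All late and mid log libraries lay below all early log libraries. Early log C lay between. Its log2 fold change was -4.30 ± 0.54 (SE, n = 3 each, edgeR adjusted p = 0.000371) in late over early log and -4.43 ± 0.83 (adjusted p = 0.0135) in mid over early log. The read counts behind these levels ran between 22 and 2554 per library.

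NUP57 (YGR119C, chromosome VII 728046 to 729671) had the deepest fall of the set. It stood at 50.2, 44.2 and 7.76 CPM in early log, at 3.46, 1.38 and 0.834 CPM in mid log and at 1.68, 0.825 and 1.56 CPM in late log. The early log libraries did not overlap with the others, although early log C held only 16.4% of the mean of early log A and B. The log2 fold change was -4.69 ± 0.74 (edgeR adjusted p = 0.00105) in late over early log, a mean level 25.1 times lower in late log. NUP49 (YGL172W), the third gene of the trimer, followed another course, with 42.4, 42.4 and 53.1 CPM in early log, 64, 5.95 and 5.64 CPM in mid log and 13.0, 11.8 and 16.0 CPM in late log. Mid log A thus lay above every early log library while mid log B and C lay below every late log library. NUP49 was lower in late over early log (-1.81 ± 0.17, edgeR adjusted p = 0.000106) but not called in mid over early log (-0.86 ± 0.90, adjusted p = 0.449).

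The 2 further FG genes, paralogs that encode karyopherin-binding nucleoporins with long GLFG repeats, were both lower. NUP100 (YKL068W) stood at 80.1, 78.2 and 61.8 CPM in early log, at 32.6, 9.93 and 10.1 CPM in mid log and at 14.1, 10.2 and 14.0 CPM in late log, a log2 fold change of -2.58 ± 0.17 in late over early log. NUP116 (YMR047C), which also binds Gle2, stood at 55.7, 52.9 and 33.4 CPM in early log, at 8.86, 8.85 and 7.41 CPM in mid log and at 8.79, 9.03 and 7.89 CPM in late log, a log2 fold change of -2.52 ± 0.22. In mid log A, NUP116 was already at its late log level while NUP100 was between the early and late log levels. Both were called lower in mid over early log as well (-2.05 for NUP100 and -2.49 for NUP116).

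On the cytoplasmic side, 3 of 5 genes were lower in late over early log and 1 was higher, against 39.2% and 33.0% of all genes. NUP82 (YJL061W), whose product anchors the cytoplasmic filaments, stood at 48.8, 52.4 and 24.6 CPM in early log, at 11.0, 3.79 and 4.86 CPM in mid log and at 5.47, 2.67 and 4.65 CPM in late log. The early log libraries all lay above the others, and the log2 fold change was -3.35 ± 0.37 (edgeR adjusted p = 0.000217). NUP159, the FG nucleoporin that docks the mRNA helicase Dbp5, was lower by the same test (-2.34, adjusted p = 0.00566, and -2.78 without early log C), with 80.0 and 80.5 CPM in early log A and B but 17.8 CPM in early log C, close to the 10.5 to 14.3 CPM of the 6 later libraries. NUP42, an FG nucleoporin that binds Gle1, was also lower (-1.51). GLE1, the activator of Dbp5, was called lower without early log C. With all libraries it was not called (-0.21 ± 0.27, edgeR adjusted p = 0.508), and its early log C and mid log A values of 9.20 and 8.28 CPM were the lowest of its 9 values.

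In the nuclear basket, 4 of 5 genes were lower in late over early log, against 39.2% of all genes. NUP2 (YLR335W), a mobile FG nucleoporin that takes part in releasing import cargo, stood at 74.1, 69.9 and 20.4 CPM in early log, at 12.0, 5.26 and 5.10 CPM in mid log and at 10.6, 7.86 and 9.77 CPM in late log (-2.59 ± 0.47, edgeR adjusted p = 0.00192). Mid log B and C held the lowest values. Late log lay a little above them. NUP60, which tethers Nup2 to the pore, was lower as well (-1.29), with 15.1 to 17.2 CPM in late log against 9.47 to 12.3 CPM in mid log, where it was lowest. NUP1, a membrane-binding FG gene of the basket, was not called (-0.22 ± 0.16, edgeR adjusted p = 0.248). Its late log values of 65.7, 58.2 and 79.8 CPM overlapped with 69.5, 70.4 and 87.8 CPM in early log.

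The basket filament genes MLP1 and MLP2 were the most weakly counted of the set. MLP1 (YKR095W) had 148, 195 and 32 reads in early log, 7, 3 and 1 reads in mid log and 7, 4 and 5 reads in late log, which are 3.89, 5.57 and 0.825 CPM, 0.202, 0.147 and 0.0491 CPM, and 0.327, 0.194 and 0.2 CPM. The early log libraries all lay above the others. Counts this low leave the fitted change imprecise (-3.86 ± 0.77 in late over early log, edgeR adjusted p = 0.00312). MLP1 was too low to be tested in late over mid log. MLP2 (YIL149C) stood at 3.84, 5.37 and 3.89 CPM in early log, at 1.62, 1.28 and 0.687 CPM in mid log and at 1.64, 1.89 and 2.32 CPM in late log (-1.21 ± 0.24, adjusted p = 0.00312). Per kilobase of coding length, these 2 genes had the lowest mean levels of the set in every subphase, at 0.609 and 0.866 CPM per kb in early log where the median gene of the set had 23.4.

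The 3 membrane genes were all lower in late over early log, where 39.2% of all genes were lower. NDC1 (YML031W), a transmembrane protein shared with the spindle pole body, stood at 76.1, 77.7 and 78.8 CPM in early log, at 96.7, 14.6 and 17.5 CPM in mid log and at 26.5, 22.3 and 28.4 CPM in late log. Mid log A was its highest library and mid log B and C its lowest. The log2 fold change was -1.65 ± 0.12 in late over early log (edgeR adjusted p = 5.27e-05). POM34, another transmembrane nucleoporin, was lower in late over early log (-2.54), and it too had mid log A at an early log level (37.6 CPM) while mid log B and C were at 2.36 and 1.81 CPM. POM152, the transmembrane nucleoporin of the luminal ring, moved least (-0.46), with 66.9 to 72.7 CPM in late log against 91.4 to 92.3 CPM in early log.

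**Figure D2:**
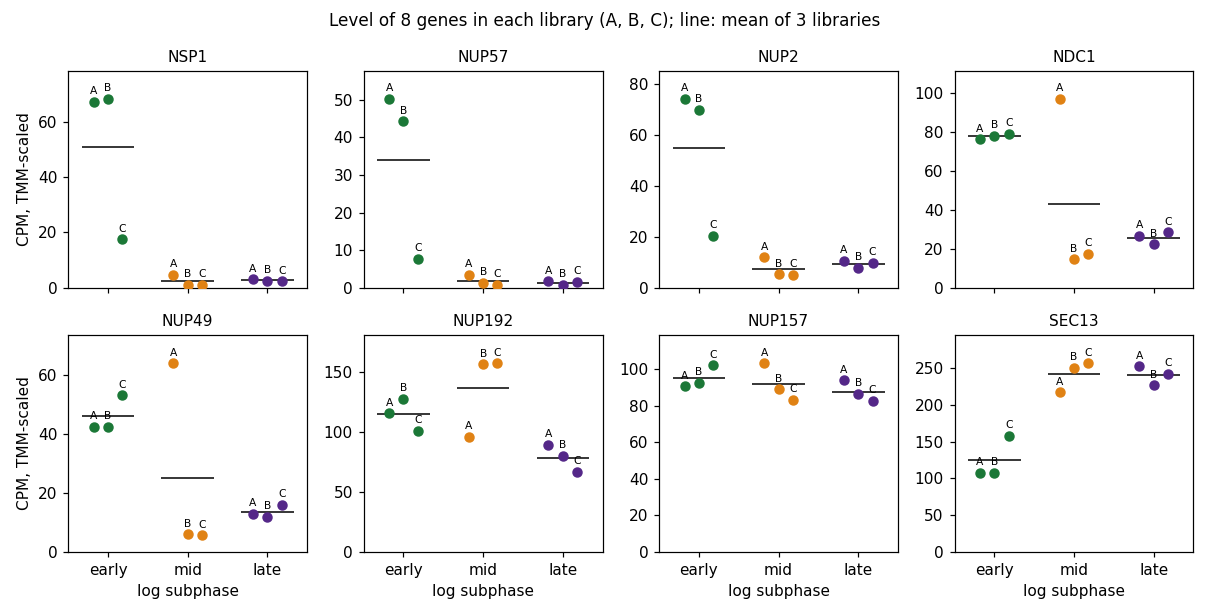
Level of 8 genes in TMM-scaled CPM (linear axes from 0) in libraries A, B and C of early, mid and late log, with lines at the subphase means. NSP1, NUP57 and NUP2 are already lower in early log C (17.5, 7.76 and 20.4 CPM), NDC1 and NUP49 stay high through mid log A (96.7 and 64 CPM), NUP192 is highest in mid log B and C, NUP157 stays between 82.7 and 103 CPM, and SEC13 is higher in all 6 later libraries.

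In the outer ring, the Y-shaped complex that coats the pore membrane, called genes went both ways in late over early log, as on the cytoplasmic side. Of its 7 genes 3 were lower and 2 higher, close to the shares of all genes (39.2% and 33.0%). SEC13 (YLR208W, chromosome XII 559551 to 560444), which is also a coat protein of secretory vesicles, stood at 108, 108 and 157 CPM in early log, at 217, 250 and 257 CPM in mid log and at 252, 226 and 242 CPM in late log. All mid and late log libraries lay above all early log libraries. Early log C was the highest of its subphase. Its log2 fold change was 0.89 ± 0.17 in late over early log (edgeR adjusted p = 0.0027) and 0.97 ± 0.24 in mid over early log (adjusted p = 0.0189).

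SEH1 (YGL100W), the small beta-propeller that binds Nup85, stood at 54.3, 53.8 and 73.8 CPM in early log, at 98.2, 101 and 121 CPM in mid log and at 104, 102 and 107 CPM in late log, again with no overlap between early log and the rest (0.73 ± 0.15 in late over early log, edgeR adjusted p = 0.00369). The third gene with a rise was GLE2 (YER107C) of the cytoplasmic side, an mRNA export factor held by Nup116, with 53.2, 52.1 and 61.8 CPM in early log, 106, 64.4 and 66.3 CPM in mid log and 91.1, 78.9 and 92.9 CPM in late log (0.60 ± 0.12, adjusted p = 0.00337). GLE2 was called in late over early log alone, and mid log A was its highest library. These rises are relative to the TMM scale. With library totals, which put the median of all genes at -0.68 in late over early log, the log2 fold changes were 0.29 for SEC13 (adjusted p = 0.217), 0.13 for SEH1 (adjusted p = 0.53) and -0.0003 for GLE2, so that the direction or call was lost.

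The remaining outer ring genes encode the rods of the Y complex, and none was higher. In late over early log NUP133 was lower by 1.18 on the log2 scale, while NUP85 (-0.66) and NUP145 (-0.35) were lower by less, and NUP84 (-0.29, edgeR adjusted p = 0.0865) and NUP120 (-0.32, adjusted p = 0.0907) were not called. Both were called lower without early log C, which was the lowest early log library for each. That makes 5 of the 7 outer ring genes lower, against 3 with all libraries, where 42.4% and 39.2% of all genes were lower. NUP145 (YGL092W), whose product is cleaved into an FG nucleoporin and a Y complex subunit, stood at 88.9, 92.2 and 103 CPM in early log, at 117, 119 and 118 CPM in mid log and at 82.8, 73.4 and 76.0 CPM in late log. It was thus highest in all 3 mid log libraries and lowest in all 3 late log libraries, but its call in late over early log (edgeR adjusted p = 0.024) was lost without early log B (adjusted p = 0.0593), late log B (0.0658) or late log C (0.0748). NUP85 (YJR042W) had 88.9 and 95.7 CPM in mid log B and C but 61.8 CPM in mid log A, against 54.2 to 79.1 CPM in early log.

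In the inner ring, the scaffold around the channel, 6 of 7 genes were lower in late over early log and none was higher. Among all genes tested 39.2% were lower and 33.0% higher. The large scaffold genes moved by less than 1.1 on the log2 scale: NUP170 by -1.09, NIC96 by -0.89, NUP188 by -0.66 and NUP192 by -0.60, while NUP157 was not called (-0.17 ± 0.11, edgeR adjusted p = 0.191). NUP192 (YJL039C), one of the largest scaffold subunits, stood at 116, 128 and 101 CPM in early log, at 96.0, 157 and 157 CPM in mid log and at 89.2, 80.0 and 67.0 CPM in late log. Mid log B and C were its highest libraries, and the 3 late log libraries lay below all others. The linker gene NUP53, whose product binds the membrane, had the deepest change of the ring (-2.25 ± 0.16), and its paralog ASM4, also called NUP59, was lower by 0.76 on the log2 scale.

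**Figure D3:**
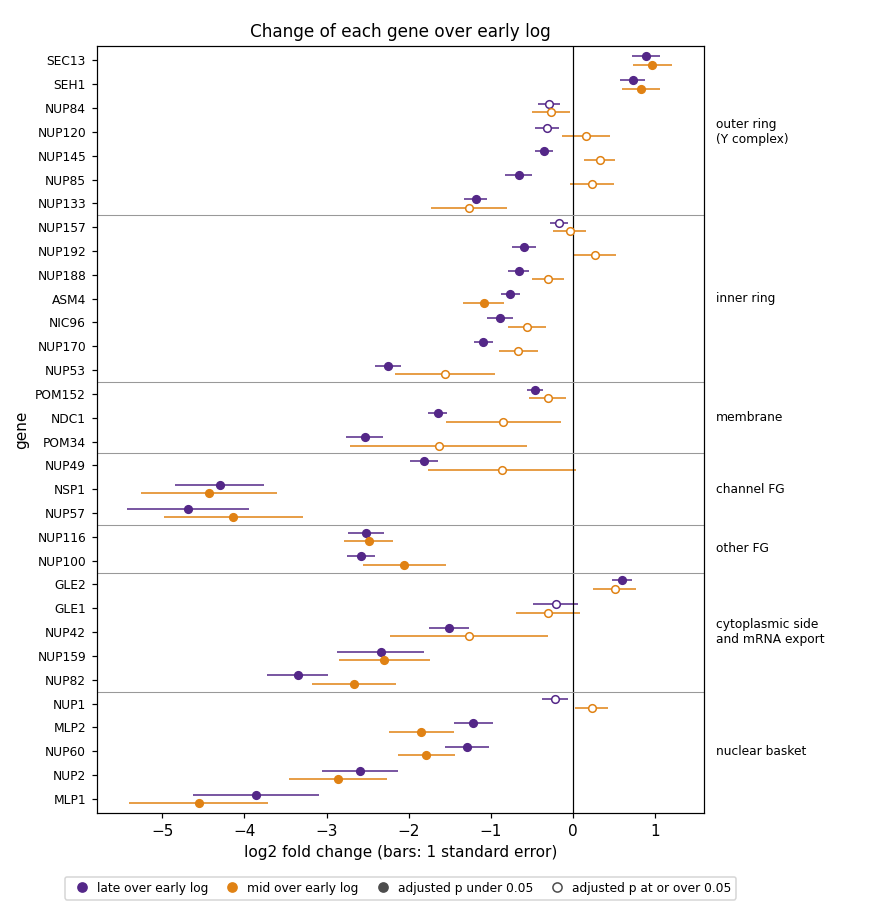
Log2 fold change of each of the 32 genes in late over early log (purple) and mid over early log (orange), with bars of 1 standard error, grouped by role. Filled points had an edgeR adjusted p under 0.05, and the values run from -4.69 for NUP57 to 0.89 for SEC13 in late over early log.

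Put together by role, the median log2 fold change of the 14 ring genes was -0.63 in late over early log, with 9 lower and 2 higher, and that of the other 18 genes was -2.08, with 15 lower and 1 higher. Of all genes tested, 39.2% were lower and 33.0% higher in this comparison. As sums, the ring genes took 1127, 1169 and 1108 CPM in early log A, B and C, 1117, 1210 and 1233 CPM in mid log A, B and C, and 1059, 946 and 960 CPM in late log A, B and C. The channel trimer took 160, 155 and 78.3 CPM in early log, 72.2, 8.41 and 7.55 CPM in mid log and 17.7, 15.2 and 19.9 CPM in late log. The ring sum lay between 946 and 1233 CPM in all libraries, while the trimer sum was lowest in mid log B and C. Within the ring sum, the inner ring took 570, 595 and 524 CPM in early log, 459, 457 and 451 CPM in mid log and 395, 344 and 336 CPM in late log. The outer ring took 556, 574 and 584 CPM in early log, 658, 752 and 782 CPM in mid log and 664, 602 and 623 CPM in late log. The inner ring sum was thus lower and the outer ring sum higher in every late log library than in any early log library. SEC13 was the largest single part of the outer ring sum in late log. The higher outer ring sum came from SEC13 and SEH1 alone, whose rises were not called with library totals. Each other outer ring gene had a smaller mean CPM in late log. The early and late log means were 61.8 and 52.5 for NUP84, 70.4 and 46.3 for NUP85, and 95.4 and 79.6 for NUP120. They were 64.2 and 29.4 for NUP133, and 94.8 and 77.4 for NUP145.

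The share of FG repeats was read from the R64 coding sequences as pairs of adjacent phenylalanine and glycine codons, a grouping added after the fold changes had been seen. Of the 32 genes, 10 had at least 10 such pairs (NUP116 with 47, NUP100 with 45, NSP1 with 33, NUP42 with 29, NUP159 with 28, NUP49 with 18, NUP1 with 17, NUP57 with 16, NUP145 with 15 and NUP2 with 12), against 15 of 5615 genes tested with a coding sequence in the annotation. In late over early log 9 of the 10 were lower with a median of -2.43, and 15 of the other 22 were lower and 3 higher with a median of -0.71. Of all genes tested, 39.2% were lower and 33.0% higher. Across the 32 genes Spearman's rho between the number of pairs and the fold change was -0.46, a description over genes that share the same 6 libraries. High FG content did not go with a deep fall throughout, since NUP1 was not called (-0.22) and NUP145 was lower by only 0.35 on the log2 scale, while MLP1 and NUP82 were among the deepest falls with 1 and 2 pairs.

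The upstream sequences of 4 genes are shown because these genes mark the range of responses: NSP1 and NUP57 with the deepest falls, NUP157 with the smallest change and SEC13 with the largest rise. Each window holds the 250 bases between 300 and 51 bases before the start codon, 5′ to 3′ on the coding strand, from the R64 genome, with the motif matches in capitals. Those of NSP1 (chromosome X 365484 to 365733, plus strand), NUP57 (chromosome VII 729722 to 729971, minus strand), NUP157 (chromosome V 372064 to 372313, minus strand) and SEC13 (chromosome XII 559251 to 559500, plus strand, of which 39 bases overlap with HRD3) read as follows.
NSP1: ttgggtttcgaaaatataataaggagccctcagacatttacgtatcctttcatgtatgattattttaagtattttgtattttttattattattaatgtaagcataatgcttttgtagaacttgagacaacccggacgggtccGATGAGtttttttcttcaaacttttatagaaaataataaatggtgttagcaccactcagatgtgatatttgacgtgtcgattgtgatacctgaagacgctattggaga
NUP57: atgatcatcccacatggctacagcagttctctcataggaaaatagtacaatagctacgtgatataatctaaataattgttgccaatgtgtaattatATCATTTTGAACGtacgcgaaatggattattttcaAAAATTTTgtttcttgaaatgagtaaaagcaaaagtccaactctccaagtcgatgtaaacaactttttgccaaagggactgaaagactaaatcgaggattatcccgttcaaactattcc
NUP157: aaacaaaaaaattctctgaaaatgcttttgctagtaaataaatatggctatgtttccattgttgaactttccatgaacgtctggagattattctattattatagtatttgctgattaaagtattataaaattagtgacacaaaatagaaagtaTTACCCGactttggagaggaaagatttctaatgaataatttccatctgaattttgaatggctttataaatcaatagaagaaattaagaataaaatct
SEC13: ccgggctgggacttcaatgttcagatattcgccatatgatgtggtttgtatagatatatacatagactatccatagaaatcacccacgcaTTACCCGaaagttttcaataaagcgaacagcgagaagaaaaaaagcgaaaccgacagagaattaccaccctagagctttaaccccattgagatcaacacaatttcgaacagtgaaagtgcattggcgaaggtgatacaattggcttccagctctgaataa
The motifs searched on both strands were PAC (GATGAG) and RRPE (AAAATTTT), both known from genes of ribosome biogenesis, and the sites of the general regulatory factors Reb1 (TTACCCG) and Abf1, and none of the matches shown overlapped another.

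Of the genes called higher in late over early log, SEC13 had a Reb1 match, while SEH1 and GLE2 had no match. All other matches were upstream of genes that were lower or not called. PAC was in the windows of 9 of the 32 genes (28.1%, against 17.8% of 6001 genes with a window of the same length) and RRPE in 5 (15.6% against 8.77%). Reb1 was in 8 (25.0% against 7.85%) and Abf1 in 9 (28.1% against 12.7%). NSP1 had a PAC match and NUP57 an RRPE and an Abf1 match, while NUP157, which was not called, and SEC13, which rose, both had a Reb1 match. A match is a description of the sequence only.

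Between mid and early log, 11 of the 32 genes were lower and 2 higher, where 24.2% of 5951 genes tested were lower and 20.7% higher. The median log2 fold change was -0.85 for the 32 genes and -0.12 for all genes. Those lower were NSP1, NUP57, NUP100, NUP116, NUP82, NUP159, NUP2, NUP60, MLP1, MLP2 and ASM4, and those higher were SEC13 and SEH1. All 13 were called with the same direction in late over early log, and a further 14 were called in late over early log alone. The 3 mid log libraries lay below the 3 early log libraries for 16 genes and above them for 4, against 34.3% and 27.2% of all genes.

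These counts rested on which libraries were compared. Without mid log A, 20 genes were lower and 4 higher in mid over early log, where 42.8% and 33.6% of all genes were called. Gained as lower were POM34 (-4.35), NUP42 (-3.56), NUP49 (-2.95), NUP53 (-2.65), NDC1 (-2.24), NUP133 (-1.94), NUP170 (-0.81), NIC96 (-0.54) and POM152 (-0.46). Gained as higher were NUP192 (0.49) and NUP145 (0.36). Without early log C the counts were 12 lower and 2 higher, where 20.2% and 16.6% of all genes were called, and NIC96 (-0.71) was gained as lower. Without both libraries, an alternative added after the data were seen, they were 23 lower and 8 higher, where 47.8% and 41.8% of all genes were called. With either early log A or early log B left out, or either mid log B or mid log C, no gene of the set was called by edgeR (smallest adjusted p between 0.0526 and 0.0631), nor was any other gene. At an unadjusted p under 0.05 there were then 2 higher and 11 lower genes each time (40.7% to 41.3% of all genes), against 2 higher and 15 lower with all libraries (55.2% of all genes).

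The genes in which these 2 libraries stood apart overlapped in part. Early log C was under 50% of the mean of early log A and B for 7 of the 32 genes (9.33% of all genes), namely NSP1, NUP57, NUP2, NUP60, NUP82, NUP159 and MLP1. Mid log A lay within or above the early log range with mid log B and C below it for 6 genes (14.0% of all genes), namely NUP42, NUP49, NUP157, POM152, POM34 and NDC1. None of the 7 was among these 6, as was true of all but 6.31% of the genes with early log C so low. Mid log A was over 2 times the mean of mid log B and C for 12 genes (27.2% of all genes), which included NSP1, NUP57, NUP2, NUP82 and MLP1 of the 7. Of all genes with early log C so low, 38.9% had mid log A that high. For 3 genes, NUP120, NUP192 and GLE1, mid log A lay below the early log range and mid log B and C did not, against 5.65% of all genes. Mid log A, B and C shared run 2, while early log C was in run 3 and early log A and B were in run 1. The study reported that early log C was at the upper and mid log A at the lower limit of the optical density range of its subphase. Whether harvest time, the run of early log C or another property of these cultures goes with the split was not tested.

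Between late and mid log none of the 31 genes tested was called by edgeR, and 0.307% of 5865 genes were higher and 0.153% lower. At an unadjusted p under 0.05 there were 7 of the 31 genes and 1160 of all genes (19.8%). DESeq2 called NUP85 and NUP145 lower and none higher among 29 with an adjusted p, where it called 3.13% of all genes lower and 2.9% higher. The largest fitted differences were negative, at -0.97 for NUP85, -0.96 for NUP49, -0.94 for NUP192 and -0.91 for POM34 (edgeR adjusted p = 0.116, 0.593, 0.143 and 0.682). The smallest adjusted p was that of NUP145 (-0.74, adjusted p = 0.0982). For NUP49 and POM34 the negative value rested on mid log A (64 and 37.6 CPM). Mid log B and C (5.95 and 5.64 CPM for NUP49, 2.36 and 1.81 CPM for POM34) lay below every late log library. Without mid log A the direction of both reversed (1.06 and 1.73). The 3 late log libraries lay below the 3 mid log libraries for 6 genes and above them for 3, against 9.39% and 18.9% of all genes. The 6 were NUP85, NUP192, NUP145, NUP188, NIC96 and NUP1, and the 3 were NUP60, MLP2 and ASM4.

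Mid log A decided the outcome of this comparison. Without it, 9 of the 31 genes were lower in late than in mid log and 10 were higher, where 27.2% and 28.9% of all genes were called. Of the 9, 8 were ring genes (NUP85, NUP192, NUP120, NUP145, NUP188, NIC96, NUP170 and SEC13) and the other was NUP1. The 10 higher genes were NUP42 (1.97), POM34 (1.73), NSP1 (1.13), NUP49 (1.06), MLP2 (0.82), NUP2 (0.69), NUP133 (0.67), NDC1 (0.51), NUP60 (0.48) and ASM4 (0.37).

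The sequencing run moved with the late over early comparison. With run as a term, late log is set against early log C of the same run, a single library whose spread is taken from the other libraries. In this fit 7 of the 32 genes were lower and none higher, where 12.1% of 6014 genes were lower and 12.0% higher. The 7 were NSP1 (-2.71), NUP82 (-2.53), NUP57 (-2.51), NUP100 (-2.27), NUP116 (-1.96), MLP1 (-1.76) and NUP170 (-0.96), with edgeR adjusted p between 0.0193 and 0.044, and at an unadjusted p under 0.05 there were 13 lower and 2 higher genes (44.9% of all genes). Within run 3 the 3 late log libraries lay below early log C for 26 of the 32 genes and above it for 4 (46.1% and 43.8% of all genes), and SEC13, SEH1, GLE2 and GLE1 were the 4. Early log C was both the only early log library of run 3 and the one that stood apart, and these cannot be told apart.

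In late over early log, with the set split at its own median length, more of the long than of the short genes were called lower. The median fall was nevertheless deeper in the short genes. Coding lengths ran between 894 bases in SEC13 and 5628 bases in MLP1, and the set was split at its median of 2353.5 bases into 16 long and 16 short genes. In late over early log 13 of the 16 long genes were lower and none higher, where 67.6% of 892 genes of that length were lower and 7.17% higher. Of the 16 short genes 11 were lower and 3 higher, where 36.4% of 4733 shorter genes were lower and 35.9% higher. The median log2 fold change was -0.99 for the long and -1.40 for the short genes of the set, against -0.90 and 0.03 for long and short genes overall.

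The long minus short difference was therefore 0.41 in the set and -0.94 over all genes, a contrast for which no test was made. In late over mid log it was -0.19 in the set and -0.13 over all genes. Spearman's rho between coding length and fold change was -0.07 over the 32 genes and -0.38 over 5625 genes, a description across genes that are not independent. Both sides held deep falls, those of NUP57, NUP82, NUP2, POM34, NUP53 and NUP49 on the short side and those of NSP1, MLP1, NUP100, NUP116 and NUP159 on the long side. Small changes also stood on both, in NUP157, NUP120, NUP145 and NUP1 among the long genes and in NUP84 and GLE1 among the short ones, which held the 3 rises as well. The split is sensitive to where it is made, since at the median length of all genes tested, 1230 bases, the short genes were POM34 and the 3 that rose, and the difference was -1.86 in the set and -0.93 over all genes.

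**Figure D4:**
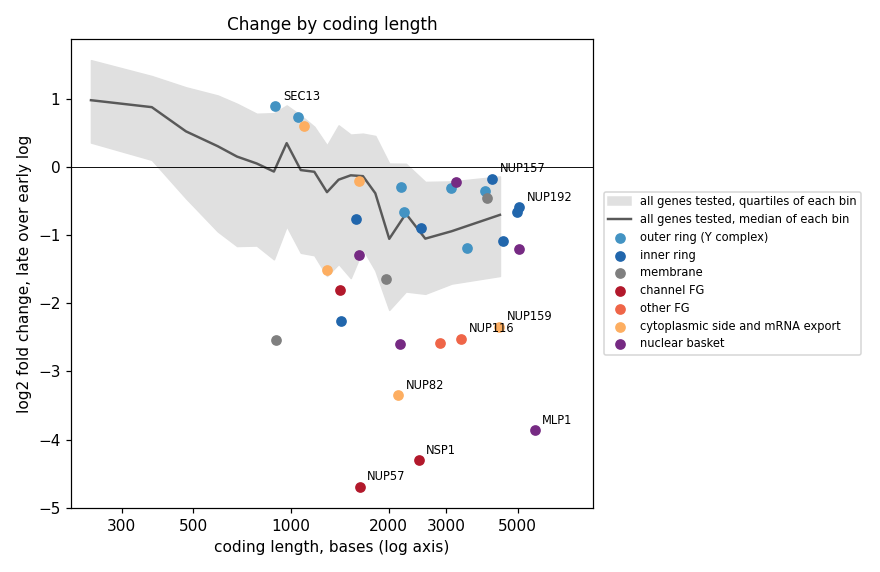
Log2 fold change in late over early log against coding length in bases (log axis) for the 32 genes, coloured by role, over the median and interquartile range of all genes tested in 20 bins of length. The grey median runs from 0.98 in the shortest bin to -0.70 in the longest, the ring genes lie near or above it among long genes, and NUP57, NSP1, NUP82 and MLP1 lie far below it.

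With the trend of fold change on length removed over all genes, 15 of the 32 genes were lower and 9 higher in late over early log, where 31.5% of all genes were lower and 40.0% higher. The 9 were SEC13, SEH1, GLE2, NUP84, NUP120, NUP145, NUP157, POM152 and NUP1, of which NUP157 (0.69), NUP1 (0.70), NUP120 (0.63), NUP84 (0.56), NUP145 (0.53) and POM152 (0.42) turned from a negative value. All 3 channel genes, both further FG genes, NUP82, NUP159, NUP42, NUP2, NUP60, MLP1, POM34, NDC1, NUP53 and ASM4 were still lower. Whether the trend on length reflects the RNA or the libraries was not tested.

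Paralogs within the set allow a comparison that does not depend on library scaling, as the log2 ratio of reads per kb within each library. An exact permutation of 3 libraries against 3 cannot give a p below 0.1. NUP157 over NUP170, a duplicated pair of inner ring scaffold genes, had ratios of 0.14, 0.05 and 0.36 in early log, 0.68, 0.82 and 0.98 in mid log and 1.05, 1.21 and 1.05 in late log. As levels, NUP157 stood at 94.1, 86.6 and 82.7 CPM in late log against 90.8, 92.7 and 102 CPM in early log. NUP170 stood at 49.0, 40.4 and 43.1 CPM in late log against 89.0, 96.3 and 86.1 CPM in early log. The ratios did not overlap between subphases, and the difference was 0.92 in late against early log (exact permutation p = 0.1, two-sided, 0.13 adjusted over 4 pairs) and 0.28 in late against mid log (exact permutation p = 0.1, adjusted 0.4). NUP157 thus stood above NUP170 per kb in late log, while the pair was near equal in early log.

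ASM4 over NUP53 had ratios of 0.29, 0.38 and -0.02 in early log, -0.10, 1.65 and 1.65 in mid log and 1.49, 1.83 and 1.83 in late log. In this ratio mid log A sat with early log while mid log B and C sat with late log. Both genes were lower in late log, NUP53 by more. NUP53 stood at 33.2, 31.8 and 36.6 CPM in early log, 23.7, 5.36 and 5.10 CPM in mid log and 8.70, 6.31 and 7.09 CPM in late log. ASM4 stood at 45.0, 45.8 and 40.1 CPM in early log, 24.6, 18.7 and 17.9 CPM in mid log and 27.2, 25.0 and 28.1 CPM in late log. The difference in the ratio was 1.50 in late against early log (exact permutation p = 0.1, adjusted 0.13). MLP1 over MLP2 had ratios of -0.14, -0.11 and -2.38 in early log, -3.07, -3.08 and -3.43 in mid log and -2.40, -3.29 and -3.57 in late log, a difference of -2.21 in late against early log (exact permutation p = 0.1, adjusted 0.13) that rests on 4 to 7 reads per late log library for MLP1. Early log C alone of the early libraries was near the later ones. NUP100 over NUP116 had ratios of 0.89, 0.40 and 1.04 in late log against 0.74, 0.78 and 1.10 in early log, which overlapped (difference -0.10, exact permutation p = 0.8), and mid log A stood out at 2.09.

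**Figure D5:**
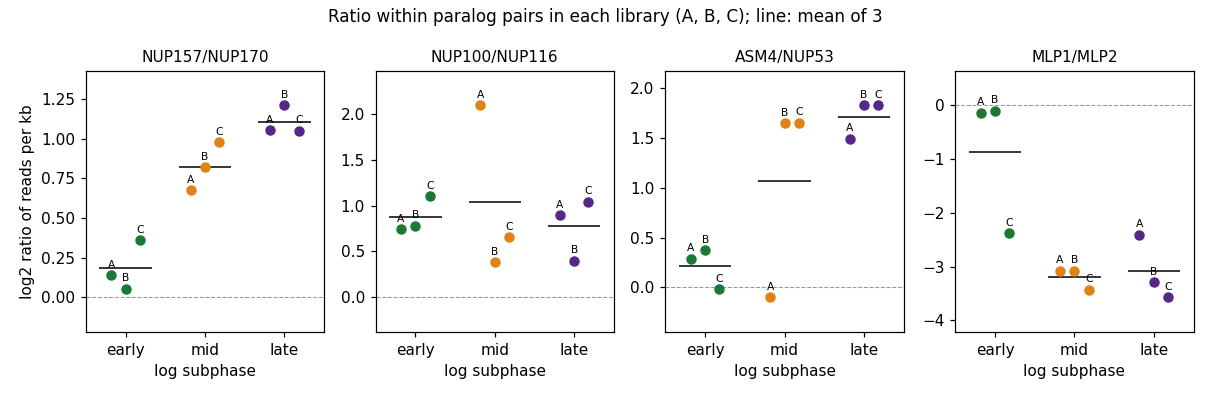
Log2 ratio of reads per kb within 4 paralog pairs in libraries A, B and C of early, mid and late log, with lines at the subphase means. NUP157/NUP170 lies at 0.05 to 0.36 in early log and at 1.05 to 1.21 in late log, ASM4/NUP53 in mid log A (-0.10) is with early log, and MLP1/MLP2 in early log C (-2.38) is near the later libraries.

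Levels per kilobase set the order of the genes within the pore. SEC13 was first in every subphase, at 139 ± 32.1 CPM per kb in early log, 270 ± 24.0 in mid log and 269 ± 14.7 in late log (mean ± SD, n = 3), and SEH1 and GLE2 followed it in each. In late log the third gene, GLE2 at 79.8 ± 6.9, lay well above the fourth, NUP120 at 25.6 ± 2.8, which did not differ from NUP84 at 24.1 ± 1.0 beyond their spread. In early log a run of 27 genes lay between GLE2 at 50.7 ± 4.9 and NUP159 at 13.6 ± 8.2 CPM per kb, and most neighbours in that run did not differ beyond their spread. The number of genes under 10 CPM per kb was 17 in late log and 14 in mid log, against 3 in early log, and NSP1 and NUP57 had 1.08 and 0.835 CPM per kb in late log.

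Genes that work with the pore did not move as a block. Their counts stand beside 39.2% of all genes lower and 33.0% higher in late over early log. Of 15 karyopherins, the carriers that cross it, 3 were higher and 2 lower in late over early log with a median of 0.05, with the largest rise in KAP104, the importin of mRNA-binding proteins (0.51), and the largest fall in LOS1, the tRNA exporter (-1.03). Of the 3 rises, those of KAP95 and KAP122 were lost without late log A (edgeR adjusted p = 0.0705 and 0.0542) and that of KAP95 also without early log A (adjusted p = 0.0622), while CSE1 and PSE1 were called higher without early log C (adjusted p = 0.00477 and 0.0348). In mid over early log 5 were higher and none lower, where 20.7% of all genes were higher and 24.2% lower. Of 8 genes of the Ran system, which gives transport its direction, 4 were higher and 3 lower, between GSP2, a Ran GTPase gene (1.96), and YRB2, a Ran-binding export cofactor (-2.82). Of 12 mRNA export genes, 8 were lower and 1 higher with a median of -1.45, between SAC3, the scaffold of the TREX-2 complex (-2.22), and SUB2, an RNA helicase (0.48). SUB2 was the only rise of that list, and its call was lost without early log A (edgeR adjusted p = 0.0595), early log B (0.0564) or late log A (0.0677). Without early log C, CDC31 (0.56) was called higher and GFD1 (-0.61) lower.

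Of 12 genes of pore assembly and the nuclear envelope, 6 were higher and 5 lower in late over early log, against 33.0% and 39.2% of all genes. The largest rise was in YOP1, which shapes tubular membranes (1.49), and the largest fall in ESC1, a protein of the nuclear periphery (-3.12). No list had a called gene in late over mid log with all libraries. The medians of these lists stand beside a median of -0.08 for all genes, and no test between lists was made.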

How the data were processed

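Raw gene counts of 9 mRNA-seq libraries, 3 each of early, mid and late log, were deposited by the authors, who selected poly(A) RNA, used a directional kit, mapped single-end reads with STAR (R64 build) and used HTSeq for counting (0.12.3 in the submitters' processing notes). The strand setting of the counting is not given in the sources used here. Groups came from the sample titles and runs from the study. The 5 lines of each file without a gene name were left out, which hold 16.6% to 20.0% of its reads, and 7.46% to 11.2% of reads matched more than 1 place. No annotated gene overlapped a member's coding region and no near-identical copy (50 bases at 97% identity) was found with blastn.

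Every comparison used the libraries of its own pair of subphases alone, in R 4.3.3 with edgeR 4.0.16 (filterByExpr, TMM, quasi-likelihood test) and Benjamini-Hochberg adjustment over all genes tested at 0.05. Standard errors came from the F statistic. CPM were scaled by TMM over the 9 libraries. Paralog ratios used counts plus 0.5 per kb. Windows, motifs and codon pairs were read from R64 in Python 3.11.15, and DESeq2 1.42.0 served as an alternative. The fit was also run on simulated counts with known changes, as a check of the code alone, and its outcome is not given here. Replicates were biological, and p-values measure only the spread between these libraries. Replicates of a subphase differed beyond counting error over all genes, so the spread between libraries sets the precision.

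The members and lists were chosen with earlier results of these data known. Every gene of the set was named with its late over early log2 fold change. Values per library were given for the 5 largest rises and falls past the threshold (3 rises existed), the paralog pairs and the genes called in late over mid log or in opposite directions. Other genes with values per library (NUP49, NDC1, NUP192, NUP145 and NUP1 among them) were chosen after their values were seen. From each other list the largest rise and fall past the threshold were named. Alternatives were other scalings, filters and tests, removal of length or GC trends, a replicate block, a run term and leaving out each library. The authors' gene sets were not used here.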

Additional observations from a re-analysis of the deposited data

How the results depend on the processing

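Of the 27 genes called in late over early log, 6 (NSP1, NUP57, NUP82, NUP100, NUP116 and MLP1) kept call and direction under every alternative that tested them, the run term with its single early log library included. Library totals gave 0 higher and 19 lower genes in mid over early log. Of genes of at least 2353.5 bases, 6 of 893 were then higher and 57.2% lower. For shorter genes these were 189 of 4739 and 33.5%. With library totals 0 were higher in late over early log, where the share of all genes is not given here. In late over mid log 1 was lower, where 453 of 5865 genes were called. GLE2 turned to -0.0003, KAP104 to -0.091 and SUB2 to -0.12. The median of all genes moved to -0.89, -0.68 and 0.13 in the 3 comparisons. Removing the length trend gave 9 higher in mid over early log, where 216 of 893 long and 1352 of 4739 short genes were higher. In late over early log it gave 9 higher and 15 lower (40.0% and 31.5% of all genes), with a long minus short difference of 0.82. It turned NUP1 (0.70), NUP84 (0.56), NUP85 (0.22), NUP120 (0.63), NUP145 (0.53), NUP157 (0.69), NUP188 (0.16), NUP192 (0.22), NIC96 (0.044), POM152 (0.42) and GLE1 (0.20). Removing the GC trend gave 7 higher in mid over early log, where 160 of 893 long and 1328 of 4739 short genes were higher. In late over early log it also gave 7 higher, where 185 of 892 long and 1906 of 4733 short genes were. It turned NUP84 (0.50), NUP85 (0.036), NUP120 (0.35), NUP145 (0.25), NUP157 (0.60), NUP192 (0.21), POM152 (0.33) and GLE1 (0.20). The run term gave 0 higher and 7 lower and turned NUP84 (0.022), NUP120 (0.014) and GLE1 (0.57). DESeq2 gave 2 lower in late over mid log. Without early log C and mid log A together, 8 were higher and 23 lower in mid over early log. Split at the median length of all genes, the long minus short difference was -1.64 in mid and -1.86 in late over early log. A pseudocount of 5 turned MLP1 over MLP2 in late against mid log to -0.24. The cause of these shifts was not tested.

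Leaving out each library in turn gave 0 to 4 higher and 0 to 20 lower in mid over early log, 3 higher and 23 to 27 lower in late over early log, and 0 to 10 higher and 0 to 9 lower in late over mid log. In late over early log 28.2% to 38.4% of all genes were then higher and 35.5% to 42.4% lower. In mid over early log these shares were 0.0% to 33.6% and 0.0% to 42.8%. In late over mid log they were 0.0% to 28.9% and 0.0% to 27.2%. The long minus short difference ranged between 0.026 and 1.37 in mid over early log, 0.34 and 0.56 in late over early log, and -0.53 and 0.058 in late over mid log. NUP100 over NUP116 ranged between -0.36 and 0.50 in mid against early, -0.23 and 0.093 in late against early and -0.60 and 0.26 in late against mid log, and MLP1 over MLP2 between -0.24 and 0.35 in late against mid log. GLE1 in late over early log ranged between -0.47 and 0.0001.

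Same-numbered libraries did not deviate together (correlations of -0.36 to 0.38), so the replicate numbers were not used as pairs. With a replicate block, 14 genes were lower and 2 higher in mid over early log, 23 lower and 3 higher in late over early log, where NUP145 lost its call (edgeR adjusted p = 0.0553), and none was called in late over mid log. The share of all genes called with a replicate block is not given here, so these counts cannot be set against it. Low counts limit MLP1.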
